A study of Mus musculus with 2 samples.

Results

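The Calca and Thbs2 barcodes are a small set of endothelial barcodes in mouse kidney droplet data, picked because they held UMIs of Calca, Thbs2, Tgfb2 and Bmp2. A barcode tags the RNA of 1 droplet, and a UMI (unique molecular identifier) tags 1 captured RNA molecule. Of 2350 barcodes kept in 2 libraries, 1104 were endothelial by at least 1 UMI of Pecam1, Cdh5, Egfl7 or Flt1, and 85 of these were members. A member had at least 2 UMIs summed over the 4 genes, and this sum was larger than that of each of 4 other marker sets, for cortical capillary, glomerular and arterial endothelium and for barcodes with Inhbb and Igfbp3. The cisplatin library gave 7 members of 608 endothelial barcodes, and the saline library gave 78 of 496.

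Both libraries came from kidneys of male C57BL6/J mice of 10 to 12 weeks. The cisplatin mice had a dose of 20 mg/kg, the saline mice had vehicle, and kidneys were taken 72 h later. The design gives 5 mice and 10 kidneys for each treatment, which are joined in 1 library, so there was no replicate and no test of any difference. Cells were enriched on magnetic beads for CD31 (Pecam1), an endothelial surface protein, and then for podoplanin (Pdpn), a lymphatic surface protein, and the submitters, who checked the enrichment by flow cytometry, labelled them lymphatic endothelial cells. Every interval below is a 95% interval that covers counting error only, and says nothing of the spread between mice.

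Calca encodes calcitonin and, by alternative splicing, calcitonin gene-related peptide (CGRP), a peptide best known from sensory nerves that relaxes vessels through the receptor Calcrl with a Ramp protein. Thbs2 encodes thrombospondin 2, a matrix protein that restrains new vessel growth. Tgfb2 and Bmp2 encode secreted ligands of the TGF-beta family, which act through paired serine/threonine kinase receptors and SMAD proteins. Kidney blood passes from arteries through glomeruli to efferent arterioles, and then to cortical peritubular capillaries or, deeper, to the descending vasa recta, and the endothelium of each stretch has its own genes.

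The genes that define the set lie on different chromosomes. In the GRCm38 annotation Calca spans chr7:114631478-114636357 on the minus strand, Thbs2 chr17:14665500-14694235 on the minus strand, Tgfb2 chr1:186622792-186705989 on the minus strand and Bmp2 chr2:133552159-133562885 on the plus strand. The 250 bases before the start are shown for the 3 of 4 genes in RefSeq's promoter table (GRCm38.p6), since these genes were the basis of the choice. Each is written 5′ to 3′ on its own coding strand. Capitals mark TGACG, the core of the cAMP response element, read on both strands (CGTCA where it lies on the opposite strand), and TATAAA, the TATA box, read on the coding strand only. The windows are chr7:114636358-114636607 for Calca, chr17:14694263-14694512 for Thbs2 and chr1:186705990-186706239 for Tgfb2, all on the minus strand.
Calca: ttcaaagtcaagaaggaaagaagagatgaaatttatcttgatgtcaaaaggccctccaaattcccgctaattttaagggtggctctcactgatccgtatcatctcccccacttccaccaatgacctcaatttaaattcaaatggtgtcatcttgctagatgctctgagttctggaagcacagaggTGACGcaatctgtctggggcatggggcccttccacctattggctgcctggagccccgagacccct
Thbs2: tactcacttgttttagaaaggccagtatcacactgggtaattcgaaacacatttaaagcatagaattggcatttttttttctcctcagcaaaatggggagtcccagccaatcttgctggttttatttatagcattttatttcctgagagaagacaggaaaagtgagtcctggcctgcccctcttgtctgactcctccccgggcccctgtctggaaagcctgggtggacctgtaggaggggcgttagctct
Tgfb2: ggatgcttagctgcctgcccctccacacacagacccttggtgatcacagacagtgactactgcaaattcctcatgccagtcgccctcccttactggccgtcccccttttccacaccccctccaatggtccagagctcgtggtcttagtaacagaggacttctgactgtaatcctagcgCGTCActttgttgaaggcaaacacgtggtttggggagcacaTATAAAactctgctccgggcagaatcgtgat
TGACG began 65 bases before the start of Calca and, on the opposite strand, 72 bases before that of Tgfb2. It was not among the letters of the Thbs2 window. The same letters stood in 17.9% of 27025 promoter windows of this length, so a match is common. TATAAA stood 31 bases before the start of Tgfb2 and in 8.12% of all windows. The 2 motifs share no bases.

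The members were a smaller share of the endothelial barcodes after cisplatin. They made up 1.15% of endothelial barcodes in the cisplatin library (0.464 to 2.36%) and 15.7% in the saline library (12.6 to 19.2%). A smaller share was not seen in members alone. The arterial set made up 0.987% in cisplatin and 8.07% in saline, and the cortical capillary set 11.5% in cisplatin and 42.3% in saline. The glomerular set (3.62% in cisplatin, 2.82% in saline) and the Inhbb and Igfbp3 set (5.76% in cisplatin, 2.42% in saline) went the other way. The share of members depends on what counts as endothelial. Free RNA was estimated from the UMIs of 8 proximal tubule markers, so tubule cells that pass the gate count toward it too. It came to 35.7% of the UMIs of endothelial barcodes in the cisplatin library and 9.79% in the saline library. Among barcodes placed in any of the 5 marker sets, members were 5% of 140 in the cisplatin library (2.03 to 10.0%) and 22.03% of 354 in the saline library (17.8 to 26.7%). With at least 3 UMIs of the gate genes they were 4.29% of 163 in the cisplatin library and 19.1% of 367 in the saline library. The direction was the same with each denominator, while the ratio of the shares was not. Fewer cells, fewer cells captured and less RNA of the 4 genes per cell cannot be told apart here, and bead enrichment also sets such shares.

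Members were deep for these libraries. They held a median of 5485 UMIs and 2267 genes in the cisplatin library (3619 to 18592 UMIs) and of 4472 UMIs and 2031 genes in the saline library (703 to 21265 UMIs). The other endothelial barcodes had medians of 907 UMIs (cisplatin, 601 barcodes) and 914.5 UMIs (saline, 418 barcodes). A rule that asks for 2 UMIs of 4 genes finds deep barcodes more readily, so depth and membership are tied. Free RNA was estimated at 4.97% of the members' UMIs in cisplatin and 0.994% in saline. Mitochondrial transcripts were 6.24% of their UMIs in cisplatin and 2.12% in saline, and the ribosomal RNA overlaps Gm42418 and AY036118 together were 8.33% in cisplatin and 1.74% in saline. The libraries shared no barcode sequence. In all, the cisplatin members held 53102 UMIs and the saline members 451650.

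The sum of the 4 genes had a median of 5 UMIs and a maximum of 20 in cisplatin members, and a median of 7 and a maximum of 66 in saline members. At the edge, 3 cisplatin and 12 saline members had exactly 2 UMIs, with median depths of 4274 UMIs (cisplatin) and 1064 UMIs (saline). Just outside, 1 cisplatin and 6 saline barcodes had a single UMI as their largest set, with median depths of 557 UMIs (cisplatin) and 1083 UMIs (saline). A further 8 cisplatin and 27 saline barcodes with 2 or more UMIs had a larger sum in another set, which was the cortical capillary set for 5 of the cisplatin and 22 of the saline ones, and 4 saline barcodes were tied.

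The defining genes differed in how evenly they were spread over members, and these values describe the choice. Calca had 22 UMIs in 3 of 7 cisplatin members, 19 of them in 1 barcode, and 316 UMIs in 39 of 78 saline members, with a median of 0.5 and a highest value of 35. Thbs2 had 12 UMIs in 4 cisplatin members and 285 in 56 saline members, with a saline median of 2 and a highest value of 22. Tgfb2 had 22 UMIs in 5 cisplatin members and 274 in 63 saline members, with a saline median of 2 and a highest value of 12. Bmp2, at 1 UMI in cisplatin and 96 in 29 saline members, was the least often found. Calca was thus the most uneven of the 3 more abundant genes, with no UMI in 4 of 7 cisplatin and 39 of 78 saline members.

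**Figure D1:**
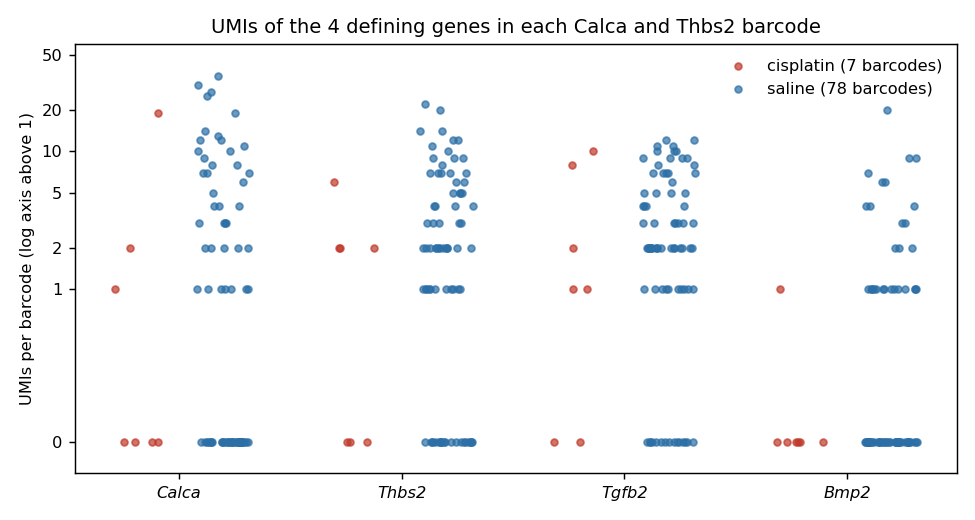
UMIs of Calca, Thbs2, Tgfb2 and Bmp2 in each member (axis linear to 1 and logarithmic above); each point is 1 barcode, cisplatin (7) left and saline (78) right, spread sideways for sight only. Calca lies at 0 in 4 cisplatin and 39 saline members but reaches 19 UMIs in cisplatin and 35 in saline, while Tgfb2 reaches 10 in cisplatin and 12 in saline and is at 0 in fewer members.

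Of the cisplatin members 3 had UMIs of only 1 of the 4 genes, 3 had 2 and 1 had all 4. Of the saline members 20 had 1 gene, 23 had 2, 19 had 3 and 16 had all 4. The commonest saline patterns were all 4 genes (16 barcodes), Thbs2 with Tgfb2 (14) and Calca with Thbs2 and Tgfb2 (13). Calca alone was found in 5 saline members, and Calca beside at least 1 other gene of the set in most of the 39 that held it. In the background measured in proximal tubule barcodes (893 in cisplatin with a median of 693 UMIs, 100 in saline with a median of 647.5), Calca had 0 UMIs in both libraries. There Thbs2, Tgfb2 and Bmp2 were found in 0.224%, 0.672% and 0.224% of cisplatin and in 1%, 3% and 0% of saline barcodes, the last allowing a share of up to 3%.

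Against other sets in saline, by UMIs per 1000000 UMIs of the set (CPM), Calca stood at 700 in members (625 to 781), 11.8 in the arterial set and 58.6 in the cortical capillary set. Thbs2 stood at 631 in members, 23.6 in the arterial set and 106 in the capillary set. Tgfb2 stood at 607 in members, 59.0 in the arterial set and 223 in the capillary set, the smallest gap of the 3. Some barcodes of the capillary set also held these genes: Tgfb2 in 23 of 210, Thbs2 in 14 and Calca in 8.

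The endothelial identity of the members was checked on 10 general markers, all of which had UMIs in both libraries. They summed to 221 UMIs in cisplatin and 2428 in saline. Of the 10, 4 were the gate genes themselves; of the other 6, the adhesion protein Esam had 16 UMIs in cisplatin and 185 in saline and the TGF-beta co-receptor Eng 26 in cisplatin and 257 in saline. The lymphatic label was not matched: Prox1, the lymphatic master regulator, Lyve1, Mmrn1, Reln, Ccl21a and Pdpn itself had 0 UMIs in members of both libraries, and Flt4 had 1 in cisplatin and 11 in saline. With 451650 UMIs in the saline members, 0 UMIs allows a level of up to 6.64 CPM. Smooth muscle markers apart from Mylk (7 UMIs in cisplatin and 48 in saline) came to 2 UMIs of Acta2 in cisplatin and 0 in saline. Fibroblast markers had 8 UMIs in cisplatin, all in 1 barcode, and 2 in saline. Podocyte-specific Nphs1 and Wt1 had 0 UMIs in both, and Podxl, which endothelium also makes, had 48 in cisplatin and 746 in saline. Leukocyte markers had 0 UMIs in cisplatin and 1 in saline, and the 8 proximal tubule markers had 14 in cisplatin and 31 in saline.

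The members carry a working name of large-vessel endothelium, and genes of large vessels were mixed in them. Sox17, a transcription factor of arterial fate, was 2.71-fold higher in saline members than in the saline arterial set (1.83 to 4.16). Among other genes the choice did not use, Bgn (biglycan), which like Vcam1 is on the venous list, had 0 UMIs in 78 saline members and 69 UMIs in the 40 barcodes of the saline arterial set, at least 123-fold lower. Vcam1, an adhesion molecule, had 1 UMI in members and 36 in the arterial set, a ratio of 0.00521 (0.000128 to 0.0309). Mgp (matrix Gla protein), which keeps artery walls from calcifying, had 175 UMIs in members and 784 in the arterial set, a ratio of 0.0419 (0.0353 to 0.0494). Gkn3, Vwf, Cytl1 and Gja5 were also nearly absent from members, with 0 of each in cisplatin members and 0, 1, 0 and 4 UMIs in saline members, against 30, 62, 101 and 38 in the saline arterial set, but the choice itself kept that sum below that of the 4 defining genes. Eln (elastin) was the exception in that group, with 67 UMIs in 39 of the 78 saline members and 138 UMIs in the arterial set. They are called by their leading genes.

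What the members shared beyond the defining genes is shown first in saline, against the 418 other endothelial barcodes. A gene entered if at least 5 UMIs were expected in the shallower sum, and it was counted as higher or lower at a ratio of CPM of 2 or more or 0.5 or less. Of 8273 genes, 386 (4.67%) were higher in members and 887 (10.7%) lower, with a median log2 ratio of -0.008. These barcodes were chosen on the same cells, so the differences are descriptions without a test, and nothing is read from these counts.

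The leading genes on the high side were Tspan8, Mest, Ptgs2 and Glul. Tspan8, a tetraspanin membrane protein, had 1172 UMIs in 69 of 78 members and 252 UMIs in 41 of 418 others, a ratio of 5.76 (5.02 to 6.62). Mest, an imprinted gene expressed from the paternal allele, had 117 UMIs in 45 members and 17 in 15 others, a ratio of 8.52 (5.10 to 15.1). Glul (glutamine synthetase) had 565 UMIs in 66 members and 187 in 86 others, a ratio of 3.74 (3.16 to 4.44). All 3 were thus found in most of the members at full depth. Ptgs2 (cyclooxygenase 2), which starts prostaglandin synthesis, was much rarer, with 24 UMIs in 17 members and 2 in 2 others, a ratio of 14.9 (3.69 to 130). The basement membrane gene Npnt (225 UMIs in members and 66 in others, ratio 4.22) was also among the 12 highest, with Fxyd6, Efhd1, Bzw2, Plac8, Ccdc68 and Gadd45g.

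Since members were deep, every barcode was also thinned to 500 UMIs. Tspan8 then had a UMI in 53.9% of members and 5.74% of other endothelial barcodes in saline, against 88.5% of members and 9.81% of others before thinning, and in 5% of unthinned proximal tubule barcodes. After thinning, Glul was found in 44.9% of members and 10.8% of others, Sox17 in 37.2% of members and 9.09% of others, and Slc6a6 in 69.2% of members and 33.3% of others. Mest fell to 8.97% of members and 1.44% of others, from 57.7% of members and 3.59% of others before thinning. Unthinned, proximal tubule barcodes held Glul in 8%, Sox17 in 0% and Slc6a6 in 20%. Emcn showed the other case: 76.9% of members and 51.9% of others held it unthinned, but 29.5% of members and 36.8% of others did after thinning, and its CPM ratio was 1.14 (0.999 to 1.30).

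The 12 lowest genes included Fabp5, Rgcc and Gpihbp1 of the peritubular capillary list. Fabp5, a fatty acid binding protein, had 1 UMI in members and 164 in others, a ratio of 0.00755 (0.000190 to 0.0426). Rgcc had 7 UMIs in members and 163 in others, and Gpihbp1, which holds lipoprotein lipase on capillary walls, had 7 in members and 153 in others, a ratio of 0.0566 (0.0224 to 0.119). Igfbp5, which binds insulin-like growth factors, had 122 UMIs in 20 members and 1436 in 222 others, a ratio of 0.105 (0.0867 to 0.127). Bgn (0 UMIs in members and 86 in others), Chchd10 (0 in members and 53 in others) and Mlxipl (0 in members and 38 in others) were absent from members, at least 23.2-fold, 14.3-fold and 10.2-fold lower. The tubule genes Slc34a1, Kap, Gpx3, Acsm2 and Slc27a2 completed the 12. Free RNA was estimated at 0.994% of the UMIs of members and 9.79% over all saline endothelial barcodes, and its part in these tubule genes was not tested.

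By list, 10 of 13 peritubular capillary genes that entered were lower in members and none was higher, with a median log2 ratio of -2.53. The choice kept the members' sum of Btnl9, Aplnr, Fabp4, Esm1 and Npr3 below that of the defining genes. The others include the cortical capillary set, so this contrast partly describes the choice. Plvap, which forms the diaphragms of fenestrated capillaries, had 88 UMIs in members and 536 in others, a ratio of 0.203 (0.160 to 0.255), and Kdr (VEGF receptor 2) had 75 in members and 457 in others, also 0.203. The list of descending vasa recta and efferent arteriole genes went the other way, with 6 of 11 higher, 2 lower and a median of 1.04. Scin (scinderin, an actin-severing protein) had a ratio of 3.54 (2.15 to 6.05), S100a4 2.51 (2.23 to 2.83), and Slc6a6, the taurine transporter, 2.17 (1.97 to 2.39) with 1182 UMIs in 73 of 78 members and 675 in 207 of 418 others. Cryab, S100a6 and Tm4sf1 were the others above 2-fold, and Slc5a3 and Igfbp5 were lower. Against the saline arterial set alone, S100a4, S100a6 and Tm4sf1 were not among the genes 2-fold higher. The urea transporter Slc14a1, a defining gene of the descending vasa recta, had 0 UMIs in members, so that name is not used for them.

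**Figure D2:**
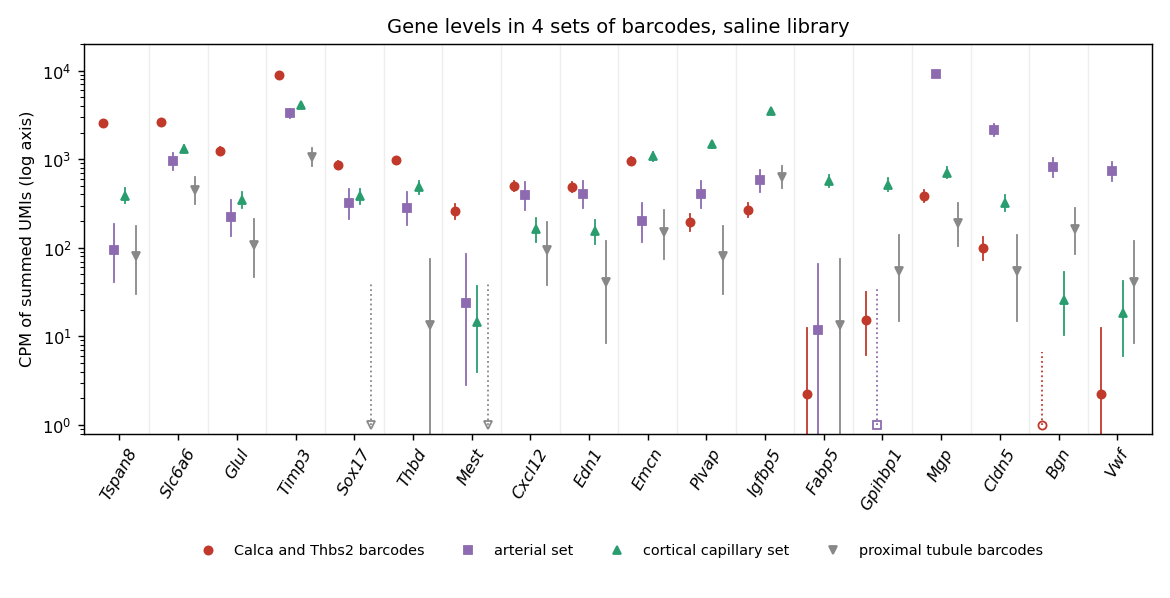
CPM (log axis) of named genes in 4 sets of saline barcodes: members, arterial set, cortical capillary set and proximal tubule barcodes; bars are exact Poisson 95% intervals, and an open symbol at the bottom with a dotted line up to the level of 3 UMIs marks 0 UMIs. Tspan8 stands at 2595 CPM in members and 94.5 CPM in the arterial set, and Fabp5 at 2.21 CPM in members and 568 CPM in the capillary set.

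The arterial list was divided, with 4 of 21 genes higher in members, 6 lower and a median of -0.15. Sox17, a transcription factor needed for arterial fate, had 390 UMIs in 66 members and 213 in 96 others, a ratio of 2.27 (1.91 to 2.69), and Jag2, Cxcl12 and Edn1 had ratios of 2.05, 2.12 and 2.02. Mgp (0.184), Clu (0.274) and the Notch-pathway genes Hey1 (0.155), Hey2 (0.206) and Dll4 (0.232) were lower. The sign of the list's median turned to 0.51 when barcodes were thinned and to 0.29 when they were weighted equally, so no direction is given for the list. Of the venous list 10 of 12 genes were lower and 1, Il1r1, higher, with a median of -2.19, or -1.99 with absent genes at their bound. Nr2f2, the transcription factor of venous fate, had 14 UMIs in members and 43 in others. Of 20 pan-endothelial genes only Tm4sf1 was 2-fold higher and only Cldn5, a tight junction protein (45 UMIs in members and 355 in others, ratio 0.157), 2-fold lower.

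For the signals that the defining genes belong to, the CGRP receptor came first. Calcrl had 410 UMIs in 66 members and 245 in 130 others, a ratio of 2.07 (1.76 to 2.44). Its partners Ramp2 (299 UMIs in members and 363 in others, 1.02) and Ramp3 (25 in members and 51 in others, 0.607) were not 2-fold apart, and Ramp1, which makes the CGRP receptor proper with Calcrl, had 0 UMIs in members and others. Of 12 vasoactive genes that entered, 3 were higher (Calcrl, Ptgs2 and Edn1, the precursor of the constrictor endothelin 1) and 4 lower (Ednrb, Ptgs1, Ace and Apln). Against the saline arterial set alone, 0 of 6 vasoactive genes that entered were 2-fold higher and 0 were 2-fold lower. By mean over barcodes, saline Edn1 was 452 CPM in members and 440 CPM in the arterial set. Ednrb, the endothelial endothelin receptor, had 13 UMIs in members and 96 in others, a ratio of 0.168 (0.0861 to 0.300), and Ace (angiotensin-converting enzyme) had 0 in members and 33 in others, at least 8.89-fold lower.

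Of 9 other ligands listed for the TGF-beta family only 3 entered, and these did not accompany Tgfb2 and Bmp2. All 3 that entered were lower in members: Tgfb1 had 22 UMIs in members and 59 in others, Bmp4 1 in members and 35 in others, and Bmp6 4 in members and 18 in others. Of 9 receptors 1 was higher (Acvr1, 11 UMIs in members and 5 in others), 1 lower (Acvr2b, 4 in members and 14 in others) and the median was -0.16. The endothelial type I receptor Acvrl1 had a ratio of 1.57 (1.22 to 2.01), while Bmpr2 had 0.896, the co-receptor Eng 0.833 and Tgfbr2 0.715. Of 11 inhibitors and activators only Htra1, a secreted protease, was 2-fold apart (8 UMIs in members and 54 in others, ratio 0.183). Of 11 targets of the pathway 1 was higher (Tgif1, a SMAD repressor) and 3 lower (Hey1, Ccn2 and Col4a2), and Id1, the usual BMP target in endothelium, had 201 UMIs in members and 239 in others, a ratio of 1.04 (0.859 to 1.26). For Thbs2, the list of thrombospondins, their receptors and matrix had 0 of 22 genes higher and 9 lower, with a median of -0.79: the receptor Cd36 had 6 UMIs in members and 61 in others, a ratio of 0.122, and the receptor Cd47 210 in members and 252 in others, a ratio of 1.03.

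The list of genes that respond to blood flow had 5 of 14 genes higher in members, 1 lower and a median of 0.64. The flow-induced transcription factor Klf4 had 484 UMIs in members and 254 in others, a ratio of 2.36 (2.02 to 2.76), and Klf2 had 813 in members and 542 in others, a ratio of 1.86. Thbd (thrombomodulin, which turns thrombin to an anticoagulant role) had 438 UMIs in 68 members and 215 in 104 others, a ratio of 2.52 (2.14 to 2.98). Timp3, an inhibitor of matrix proteases, had 3987 UMIs in all 78 members and 2236 UMIs in 325 others, a ratio of 2.21 (2.10 to 2.32). Of 9 clotting and fibrinolysis genes Thbd and Anxa2 were higher and Plat (0.495) lower.

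Among response genes in saline, all 4 MHC class II genes that entered were lower, with Cd74, the invariant chain, at 4 UMIs in members and 95 in others, a ratio of 0.0521 (0.0139 to 0.138), and a list median of -3.48, or -2.96 with the absent H2-Aa at its bound. The class I list had 0 of 13 higher and 2 lower. Of 12 heat shock genes 3 were higher and none lower: Hspa1a had 255 UMIs in members and 115 in others, a ratio of 2.74 (2.19 to 3.45), Hspa1b 2.40 and Bag3 2.23. Of 6 chemokines and cytokines Cxcl12 was higher and 5 were lower, and of 25 interferon response genes Ifi27l2a (2.38) was higher and 3 were lower. The p53 list (1 of 17 higher, 1 lower), immediate early genes (0 of 13 higher, 1 lower), leukocyte adhesion (0 of 11 higher, 3 lower), glycolysis (0 of 14 higher, 1 lower) and metallothioneins and oxidative stress (0 of 13 higher, 2 lower) had medians between -0.13 and 0.10.

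**Figure D3:**
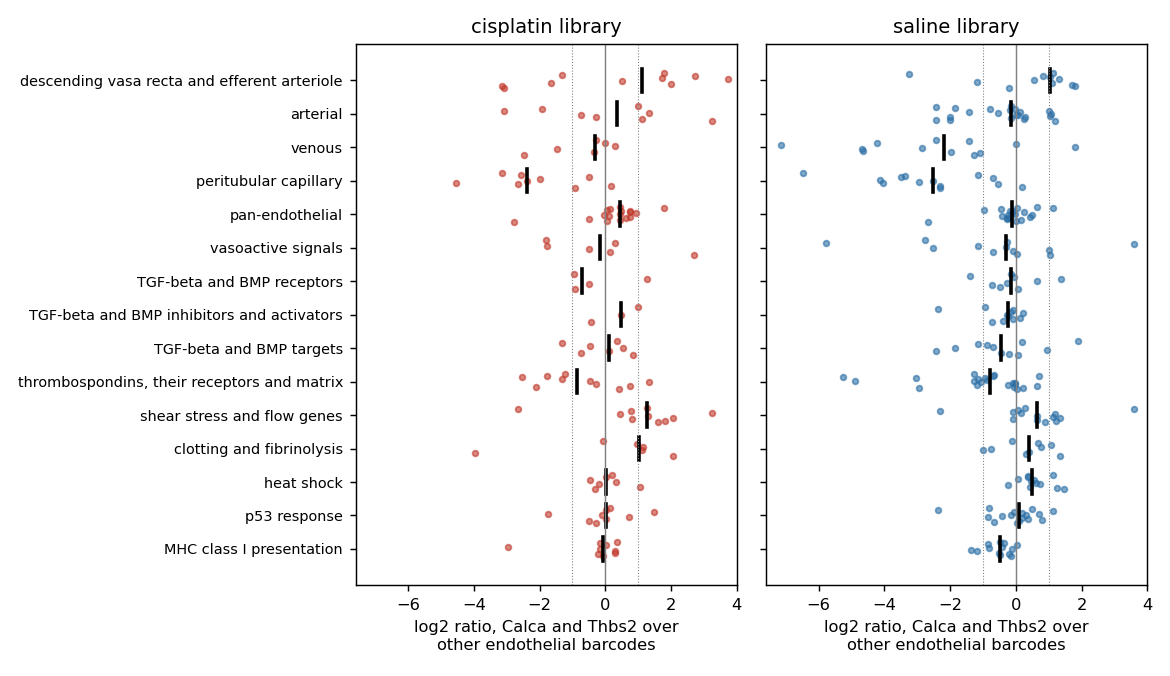
Log2 ratio of CPM, members over other endothelial barcodes, in the cisplatin library (left) and the saline library (right); each point is a gene that entered, by list, the black bar is the list's median and the dotted lines are 2-fold. The peritubular capillary list lies low, with medians of -2.39 in cisplatin and -2.53 in saline. The descending vasa recta and efferent arteriole list has medians of 1.11 in cisplatin and 1.04 in saline. In cisplatin that list is divided, with 5 of 10 genes higher and 4 lower.

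Set against the saline arterial set alone, 321 of 3002 genes (10.7%) were higher in members and 173 (5.76%) lower, with a median log2 ratio of 0.07. Tspan8 separated these most clearly, with 1172 UMIs in 69 of 78 members and 8 in 2 of 40 arterial barcodes, a ratio of 27.5 (13.9 to 63.8). Mal, a membrane raft protein, had 282 UMIs in members and 2 in the arterial set, and Rgs2, a brake on G protein signalling, 84 in members and 0 in the arterial set, at least 5.25-fold higher. Emcn (endomucin), a sialomucin that arterial endothelium makes little of, had 436 UMIs in 60 members and 17 in 7 arterial barcodes, a ratio of 4.81 (2.97 to 8.33). On the low side, besides Bgn, Vcam1 and Mgp, Cldn5 had 45 UMIs in members and 182 in the arterial set (0.0464), Clu 33 in members and 90 in the arterial set (0.0688), Fn1 (fibronectin) 31 in members and 51 in the arterial set (0.114) and Igfbp4 7 in members and 48 in the arterial set (0.0274). Of 16 arterial genes that entered, 7 were lower and only Sox17 higher, with a median of -0.88, and of 11 heat shock genes 7 were higher and none lower. Of 9 descending vasa recta and efferent arteriole genes 3 were higher (Scin, Cryab and Slc6a6) and 1 lower (Igfbp5), with a median of 0.71.

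Set against the saline cortical capillary set, 497 of 6512 genes (7.63%) were higher and 493 (7.57%) lower, with a median of 0.01. Mest had 117 UMIs in 45 of 78 members and 4 in 4 of 210 capillary barcodes, a ratio of 17.7 (6.73 to 66.0), and Tspan8 1172 UMIs in members and 106 in the capillary set, a ratio of 6.69 (5.48 to 8.24). Vim, the intermediate filament vimentin, had 1153 UMIs in members and 221 in the capillary set, a ratio of 3.16 (2.73 to 3.66). Fabp5 was the lowest gene at 1 UMI in members and 155 in the capillary set, and Plvap had 88 UMIs in 34 members and 402 in 151 capillary barcodes, a ratio of 0.132 (0.104 to 0.167). Of 12 capillary list genes 9 were lower and none higher, and of 14 flow genes 6 were higher and 1 lower. The capillary set was picked for capillary genes and the members against them, so the lower capillary genes partly describe the choice.

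The 7 cisplatin members gave a second, thinner view of the same contrast, and 1765 genes entered. Of these 134 (7.59%) were higher than in the 601 other endothelial barcodes of that library and 300 (17%) lower. The tubule gene Gpx3 had a median of 6965 CPM per barcode in those 601 and 829 CPM in members. The contrast is thus partly with barcodes rich in tubule RNA. S100a4 had 93 UMIs in 6 of 7 members and 217 in 30 of 601 others, a ratio of 13.2 (10.2 to 16.9). Sox17 had 68 UMIs in 6 members and 220 in 51 others, a ratio of 9.50 (7.13 to 12.5), and Calcrl 68 UMIs in all 7 and 321 in 79 others, a ratio of 6.51 (4.94 to 8.48). Tspan8 had 115 UMIs, but in only 3 of 7 members, and 262 UMIs in 40 others, a ratio of 13.5 (10.7 to 16.9). At full depth S100a4, Sox17 and Calcrl were thus spread over the cisplatin members, while Tspan8 was held by the 3 deepest of them. Thinned to equal depth as in saline, Tspan8 was still found in 3 of 7 members, S100a4 in 4 and Sox17 in only 1. The thinned shares of other cisplatin endothelial barcodes were 2.83% for Tspan8, 1.66% for S100a4 and 2.33% for Sox17. The wider spread of Sox17 than of Tspan8 was therefore not seen at equal depth. Glul, Slc6a6, Thbd, Vim, Crip1, Plac8, Slc38a2 and Fxyd5 were the others among the 12 highest. By mean over barcodes, cisplatin S100a4 was 1481 CPM in members, 669 in the arterial set, 149 in the capillary set and 52.4 in others. Sox17 was 1342, 298, 174 and 57.3 CPM in the same order.

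The low side in cisplatin held the injury genes of tubules, Spp1 (osteopontin, 12 UMIs in members and 7027 in others) and Lcn2 (1 in members and 1608 in others), and Plat, the tissue plasminogen activator (5 UMIs in members and 2623 in others, ratio 0.0586, 0.0190 to 0.137). Free RNA was 4.97% of member UMIs there and 35.7% over all cisplatin endothelial barcodes, and its part was not tested. Of 34 genes higher in saline members that entered in both libraries, 20 were higher and 1 lower in cisplatin members, and of 164 lower genes 128 were lower and 1 higher; over all 1746 genes that entered in both, 7.68% were higher and 16.2% lower. Members of both libraries were chosen in the same way, so this overlap is a description. By list, 6 of 9 capillary genes were lower and none higher, 5 of 10 vasa recta and efferent arteriole genes higher and 4 lower, and 6 of 10 flow genes higher and 1 lower.

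Within the members, cisplatin was set against saline over 1879 genes. Of these 56 (2.98%) were 2-fold or more higher in cisplatin and 230 (12.2%) lower, and the median log2 ratio was -0.20, so that changes are also given relative to it. After scaling by that median 90 were higher and 169 lower. The cisplatin sum comes from 7 barcodes, of which the deepest gave 35.01% of the UMIs and the next 17.4%, so several values rest on 1 of them.

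The p53 target Cdkn1a (p21), which halts the cell cycle after DNA damage, had 23 UMIs (433 CPM) in cisplatin members and 74 UMIs (164 CPM) in saline members. The ratio was 2.64 (1.58 to 4.27), a log2 of 1.42, or 1.62 after scaling. In the 7 cisplatin barcodes, from deepest to shallowest, it had 0, 0, 6, 0, 2, 13 and 2 UMIs. Cdkn1a was therefore absent from 3 of the 4 deepest barcodes, and leaving out each barcode in turn gave a log2 between 0.38, without the barcode that held 13 UMIs, and 2.05. Btg2, an antiproliferative p53 target, was more even, with 1, 1, 2, 1, 4, 6 and 1 UMIs in the 7 cisplatin barcodes and 32 UMIs in 22 of 78 saline members, a ratio of 4.25 (2.18 to 7.98) and a log2 of 1.58 to 2.64 with 1 barcode left out. These were the 2 genes past 2-fold among the 4 p53 genes that entered, and the list's median was 1.03, or 1.23 relative to all genes. It was 0.47 to 0.89 with 1 cisplatin barcode left out, when 3 of the list's genes entered. In the other endothelial barcodes Cdkn1a stood at 540 CPM in cisplatin and 159 CPM in saline, and in proximal tubule barcodes at 256 CPM in cisplatin and 27.2 CPM in saline.

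Heat shock genes had the lowest median of the lists after cisplatin, with 7 of 10 lower, none higher and a median of -1.38, or -1.18 relative to all genes. Hsp90ab1, a constitutive chaperone, had 53 UMIs (998 CPM) in cisplatin members and 1182 UMIs (2617 CPM) in saline members, a ratio of 0.381 (0.284 to 0.502), with 16, 7, 6, 13, 8, 3 and 0 UMIs in the cisplatin barcodes. Hsp90aa1 had a ratio of 0.317 (0.171 to 0.538) and Dnaja1 of 0.344 (0.199 to 0.558). The stress-induced Hspa1a had 11 UMIs in 3 of 7 cisplatin members and 255 UMIs in 47 of 78 saline members, a ratio of 0.367 (0.181 to 0.668), and its log2 was -2.33 without the barcode that held 6 of the 11. The other endothelial barcodes had 60.04 CPM of Hspa1a in cisplatin and 206 CPM in saline, so the lower level was not seen in members alone.

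Of 14 arterial genes 5 were lower in cisplatin members and none higher, with a median of -0.65, or -0.45 relative to all genes. Sema3g, an arterial guidance ligand, had 4 UMIs in 2 of 7 cisplatin members and 213 UMIs in 61 of 78 saline members, a ratio of 0.160 (0.0431 to 0.415), and a log2 between -3.96, without the barcode that held 3 of the 4, and -1.86 with 1 barcode left out. Pdgfb, the ligand that draws pericytes to vessels, had 12 UMIs in cisplatin and 353 in saline, a ratio of 0.289 (0.148 to 0.511). Edn1 had 10 UMIs in cisplatin and 219 in saline, a ratio of 0.388, Ltbp4 10 in cisplatin and 289 in saline (0.294), Npnt 7 in cisplatin and 225 in saline (0.265) and Jun 5 in cisplatin and 175 in saline (0.243). Cst3 (cystatin C) had 133 UMIs in cisplatin and 2474 in saline, a ratio of 0.457 or a log2 of -1.12, which became -0.92 after scaling, within 2-fold. B3gnt2, Ehd4 and Larp4 completed the 12 lowest, and with 0 UMIs in cisplatin and 53 in saline Larp4 was at least 2.08-fold lower. Larp4 entered through its saline UMIs only.

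On the high side Gpx3, a secreted glutathione peroxidase made by tubules, led with 73 UMIs in cisplatin members and 107 in saline members, a ratio of 5.80 (4.25 to 7.89). Of the 73 UMIs 44 lay in the deepest barcode. Proximal tubule barcodes held Gpx3 at 8482 CPM in cisplatin and 13062 CPM in saline, and free RNA was 4.97% of cisplatin and 0.994% of saline member UMIs; its part was not tested. Neat1, a nuclear non-coding RNA, had 31 UMIs in cisplatin and 58 in saline (4.55), and Lars2 173 in cisplatin and 344 in saline (4.28). Igfbp7 (27 UMIs in cisplatin and 68 in saline, 3.38), Ctla2a (38 in cisplatin and 110 in saline, 2.94), Hes1, a Notch target (18 in cisplatin and 48 in saline, 3.19), Tcim (43 in cisplatin and 116 in saline, 3.15) and Plpp1 (35 in cisplatin and 130 in saline, 2.29) were also among the 12 highest, with Tmem176a and Luc7l2. With 1 cisplatin barcode left out the log2 ratio ranged from 1.85 to 2.70 for Gpx3 and from 1.02 to 1.97 for Hes1, and it came within 2-fold for Igfbp7 (0.86) and Plpp1 (0.81). On the low side it ranged from -2.79 to -1.55 for Npnt and from -3.82 to -2.58 for B3gnt2, and it came within 2-fold for Edn1 (-0.98) and Cst3 (-0.99).

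Several genes that set the members apart in saline differed by less than 2-fold between cisplatin and saline members, and others were lower. Of 9 descending vasa recta and efferent arteriole genes 2 were lower and none higher, with a median of -0.79, or -0.59 relative to all genes. Scin had 1 UMI in cisplatin and 63 in saline, a ratio of 0.135 (0.00337 to 0.780). Cryab had 1 in cisplatin and 51 in saline, a ratio of 0.167 (0.00414 to 0.972). Both entered through their saline UMIs and rest on 1 UMI in cisplatin. Sox17 had 68 UMIs (1281 CPM) in cisplatin and 390 UMIs (863 CPM) in saline, a ratio of 1.48 (1.13 to 1.92), and the 7 cisplatin barcodes held 22, 16, 4, 6, 9, 0 and 11 UMIs. Slc6a6 had a ratio of 0.576 (0.453 to 0.722), Timp3 0.553 (0.485 to 0.627), Klf4 0.615 (a log2 as low as -1.46 with 1 barcode left out), Klf2 0.858, S100a4 0.943 and Calcrl 1.41. Of the 12 flow genes that entered 1, Cav1, was lower and none higher. No pathway ligand entered. Of 4 TGF-beta and BMP receptors Tgfbr2 and Bmpr2 were lower, and of 6 targets none was past 2-fold, with Id1 at 44 UMIs in cisplatin and 201 in saline, a ratio of 1.86 (1.31 to 2.59). The class I list (0 of 9 past 2-fold either way) and leukocyte adhesion (0 of 5) showed no gene past 2-fold, and of 9 interferon genes only Ifi27l2a was lower. These members' sums are small, and a gene expected at under 5 UMIs could not enter, so smaller differences were not detectable at this depth. For the defining genes the log2 ratio was -0.73 for Calca (-3.25 without the barcode that held 19 of the 22 UMIs), -1.43 for Thbs2, -0.52 for Tgfb2 and -2.92 for Bmp2, which had 1 UMI in cisplatin members and 96 in saline members, as a description of the choice.

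**Figure D4:**
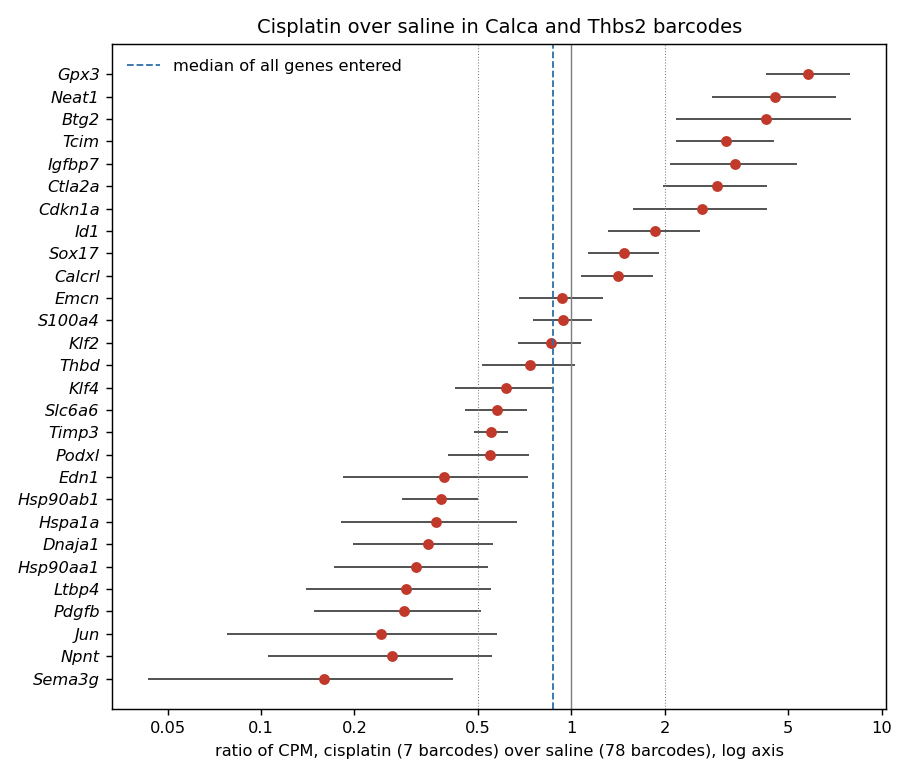
Ratio of CPM (log axis), cisplatin over saline within members, for named genes, with exact conditional 95% intervals of counting error as lines; dotted lines are 2-fold and the dashed line is the median of all genes that entered. Btg2 and Cdkn1a lie at 4.25 and 2.64, and Hsp90ab1, Hspa1a and Sema3g at 0.381, 0.367 and 0.160.

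Saline members with Calca had lower levels of some arterial genes than those without. This split was made after values were seen, and it was limited to members of at least 2000 UMIs. It sets the 34 with a Calca UMI (median 7161 UMIs) against the 25 without one (median 4232 UMIs). Calca is one of the genes of the choice, so members without it were picked through the other genes. A Calca count of 0 can also come from shallow depth, so the groups are not read as separate types of cell. Barcodes are not replicates here. Of 4193 genes 198 (4.72%) were higher with Calca and 151 (3.6%) lower, 8.32% in all. Mgp had 24 UMIs in 7 of 34 members with Calca and 145 UMIs in 16 of 25 without, a ratio of 0.0735 (0.0456 to 0.114). Clu had 2 UMIs in members with Calca and 31 in those without, a ratio of 0.0287 (0.00332 to 0.113), Cldn5 12 in members with Calca and 31 in those without (0.172), and Bmx, a kinase of arterial endothelium, 7 in members with Calca and 23 in those without (0.135). Cxcl12, an arterial chemokine, and the Notch ligand Jag1 each had a ratio of 0.444. Members without Calca thus held most of the Mgp, Clu, Cldn5 and Bmx UMIs although their sum was shallower. Of 17 arterial genes 6 were lower with Calca and none higher, with a median of -0.76.

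With Calca, Igfbp5 had 92 UMIs in 11 of 34 members and 6 UMIs in 2 of 25 without, a ratio of 6.81 (3.01 to 19.0). Of the 92 UMIs 44 lay in 1 barcode, and other barcodes held 13, 12, 8 and 6, so the ratio rests on few barcodes. In that order, these barcodes held 8, 3, 7, 6 and 12 UMIs of Plvap and 0, 4, 1, 2 and 2 of Tspan8. Plvap had 73 UMIs in members with Calca and 13 in those without, a ratio of 2.50 (1.37 to 4.91), Msx1, a homeobox gene that BMP signals induce, 33 in members with Calca and 3 in those without (4.89, 1.53 to 24.9), and Apold1 47 in members with Calca and 6 in those without (3.48). Emcn was in all 34 members with Calca and in 18 of 25 without, at a ratio of 1.64 (1.30 to 2.10). The peritubular capillary list had 1 of 6 genes higher (Plvap), 1 lower (Cd300lg) and a median of -0.04, and the descending vasa recta and efferent arteriole list had 1 of 10 higher (Igfbp5) and none lower. Genes that set members apart from other endothelium went both ways in this split. Besides Cxcl12, which was lower with Calca, S100a6 had a ratio of 1.23 (1.12 to 1.36) and Tm4sf1 1.18 (1.06 to 1.32), while the intervals of Slc6a6 (0.975, 0.859 to 1.11), Sox17 (0.874, 0.701 to 1.09) and S100a4 (1.10, 0.944 to 1.29) include 1. In cisplatin only 3 members held Calca, and the split was not made there.

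**Figure D5:**
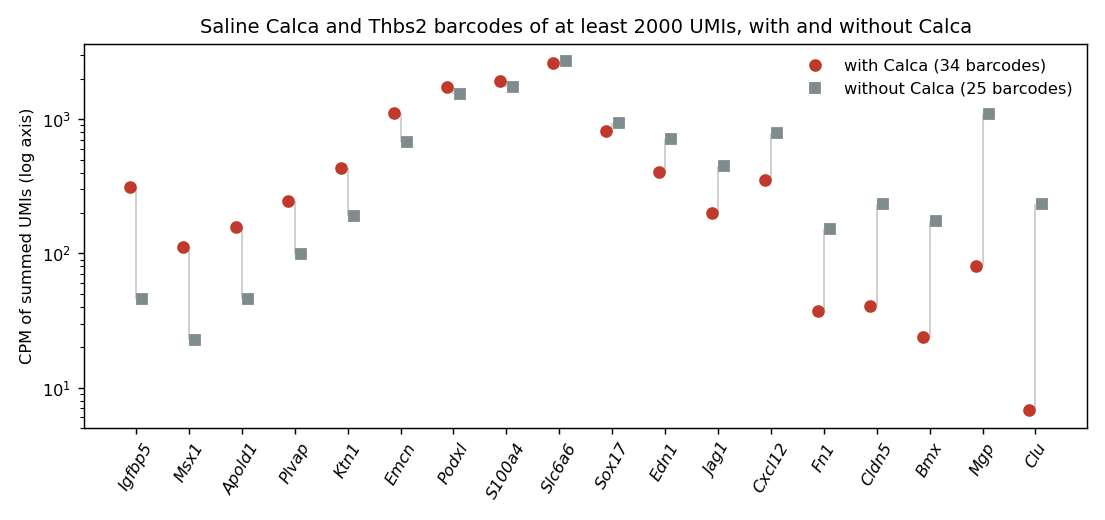
CPM (log axis) of named genes in saline members of at least 2000 UMIs, with a Calca UMI (circles, 34 barcodes) and without (squares, 25 barcodes); thin lines join the pair, and no error bars are drawn. Mgp stands at 81.0 CPM with Calca and 1101 CPM without, Igfbp5 at 310 CPM with and 45.6 CPM without, and Slc6a6 at 2635 CPM with and 2704 CPM without.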

How the data were processed

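The deposited values are UMI counts for each gene and barcode, unfiltered, made by the authors with Cell Ranger 6.0.1 on mm10 per the submitters' processing notes, while the file headers name Cell Ranger version 4; this difference was not resolved. The cisplatin library listed 19994105 UMIs in 868686 barcodes and the saline library 5879496 in 1001832, over 32285 genes. Barcodes under 500 UMIs or 250 genes, or with over 20% of UMIs from mitochondrial genes, were dropped. No doublet caller was run and no barcode was removed as a doublet. The gate and the 5 marker sets (4 defining genes; Btnl9, Aplnr, Fabp4, Esm1 and Npr3; Ehd3, Gata5 and Kcnj5; Gkn3, Vwf, Cytl1, Gja5 and Eln; Inhbb, Col13a1, Car8, Uchl1 and Igfbp3) placed barcodes as the report says. The 26 genes that placed them were left out of gene counts.

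Counts were summed over barcodes and divided by the sum's total (CPM). Ratios of CPM have exact conditional binomial 95% intervals, levels exact Poisson ones and shares Clopper-Pearson ones. Log2 ratios had 0.5 UMI added. A fold against 0 UMIs used a floor of 3 UMIs in the summed group. With 1 library for each treatment no test was run. Free RNA was estimated as the share of 8 proximal tubule markers in a set's UMIs, divided by their share in barcodes with 1 to 100 UMIs. Tubule cells and doublets in a set raise this value too. Proximal tubule barcodes were kept barcodes with 0 UMIs of the gate genes and at least 2 UMIs of 8 tubule markers.

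Named genes were the 12 highest and 12 lowest by the interval bound nearest 1, leaving out defining, mitochondrial, ribosomal, haemoglobin, Xist, Y-linked and model genes; 3 of each of 23 lists (for pathway lists also the 3 with most UMIs); and Cdkn1a and Hspa1a. Others, such as list members named to account for a count, were chosen after their values were seen. The members and lists were chosen with earlier results of these data known. Python 3.11.15, numpy 2.4.6, scipy 1.17.1, pandas 2.3.3 and matplotlib 3.10.9 were used. Scripts were tested on simulated data. Alternatives covered depth, mitochondrial and marker thresholds, mixed barcodes, thinning, equal weights, the minimum of expected UMIs and scaling. Sequences came from RefSeq and gene positions from GENCODE vM21.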

Additional observations from a re-analysis of the deposited data

How the results depend on the processing

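Of 120 alternative values 99 stayed close to the reported one, 19 moved and 2 changed sign. The share of members among endothelial barcodes was 1.15% in cisplatin and 15.7% in saline as reported. It moved to 2.59% in cisplatin and 28.5% in saline with at least 1000 UMIs per barcode, to 0% in cisplatin and 5.65% in saline without barcodes holding 2 or more UMIs of other cell types, and to 5% in cisplatin and 22.03% in saline of the 5 marker sets. The cisplatin share also moved to 4.07% when that filter left out Podxl, Synpo, Mylk and Cdkn1c, which endothelial barcodes carry, and to 4.29% with a gate of at least 3 UMIs. The count of genes past 2-fold over other endothelial barcodes in saline, 1273 as reported, was 64 without mixed barcodes, 236 thinned to 500 UMIs, 2097 with barcodes weighted equally, 678 with at least 10 UMIs expected and 4993 with no minimum. The median of the arterial list, -0.15, changed sign to 0.51 when thinned and to 0.29 with equal weights. The peritubular capillary median kept its direction under every alternative run, but each of these kept the rule that set members against capillary genes. The count of genes past 2-fold between cisplatin and saline members, 286, was 21 thinned, 91 with at least 10 UMIs expected, 4924 with no minimum (3617 higher and 1307 lower) and 153 without mixed barcodes, shared markers left out. The p53 median, 1.03, was 1.68 with equal weights and 1.85 under that same filter. Leaving out each cisplatin barcode gave 206 to 282 genes, p53 medians of 0.47 to 0.89 and heat shock medians of -1.37 to -1.19. The cause of these shifts was not tested, apart from fewer or more genes entering. The filter on mixed barcodes as planned left 0 cisplatin members, so it gave no value for that comparison, and the p53 list had no gene when thinned. The alternatives on left-out barcodes, RNA totals, the other side of the comparison, the 3-UMI gate, the 5-set denominator and shared markers were added after seeing the data. No paired analysis was possible because each treatment has 1 library. Depth limits the cisplatin values: 7 cisplatin barcodes with 53102 UMIs stand against 78 saline barcodes with 451650.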
